A study of Mus musculus with 8 samples.

Results

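The heat shock proteins and the DnaJ proteins are the main families of molecular chaperones, and their transcripts were followed here in the hippocampus of aged amyloid mice. The genes were chosen by symbol alone, as every gene of the platform's probe table named Hspa, Hspb, Hspd, Hspe, Hsph, Hsp90, Dnaja, Dnajb or Dnajc with a number, leaving out Hspbp1 and Hspbap1. This gave 66 of 19505 genes, made up of 12 of the Hsp70 family, 2 of the Hsp90 family, Hspd1, Hspe1 and Hsph1, 8 small heat shock proteins, and 3, 12 and 26 DnaJ genes of classes A, B and C. Hspa8, Hsp90ab1 and Dnaja1, which belong to the same families, were not analysed here. Hippocampi were taken from 8 animals at an age of 18 to 20 months. The transgenic line, B6.Cg-Tg(APPswe)E1-2Dbo/J, has a transgene for amyloid precursor protein with the Swedish mutation. All animals had been through the Morris water maze, a test of spatial memory, after which the labels class 4 as impaired and 4 as intact. Both groups carried the transgene, and no mice without it were analysed here. The promoter that drives the transgene is not given in the sources used here. Each mouse gave 1 Affymetrix array, and levels are log2 values from RMA, the usual summary of Affymetrix probes, so that a difference of 1 is a doubling.

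Chaperones of the Hsp70 family bind stretches of unfolded protein in a cycle driven by ATP. DnaJ proteins, also called Hsp40, bring substrates to Hsp70 and start ATP hydrolysis, and nucleotide exchange factors such as Hsp110 release the substrate again. Hsp90 finishes the folding of kinases and steroid receptors, Hsp60 with Hsp10 encloses proteins inside mitochondria, and small heat shock proteins hold misfolded proteins without using ATP. Heat shock factor 1 raises many of these genes when unfolded protein builds up in the cytosol, while the endoplasmic reticulum (ER) has its own unfolded protein response. In neurons these chaperones are known for acting on aggregating proteins such as tau and for the recycling of synaptic vesicles.

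Promoter stretches are printed for the stress-responsive genes whose values are set side by side further on. RefSeq windows from 250 bases before to 50 bases after the start (build GRCm38.p6) were matched for 55 of the 66 genes. The ER stress response element, CCAAT followed by 9 bases of any kind and CCACG, or its reverse complement, was found in the windows of Hspa5, Hsp90b1 and Dnajc3, which is 5.45% of the 55 genes, against 0.137% of the 27025 genes with a window. It is shown in capitals in the following stretches, each read on the strand of its gene.
Hspa5 (chr2:34772010-34772058, + strand): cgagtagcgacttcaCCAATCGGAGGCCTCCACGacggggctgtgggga
Hsp90b1 (chr10:86705518-86705671, - strand): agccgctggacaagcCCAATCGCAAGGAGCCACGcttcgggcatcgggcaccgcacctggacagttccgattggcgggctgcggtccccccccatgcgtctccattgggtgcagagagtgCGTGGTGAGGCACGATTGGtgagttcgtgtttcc
Dnajc3 (chr14:118937812-118937860, + strand): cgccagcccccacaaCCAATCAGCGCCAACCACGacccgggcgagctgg

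The heat shock element, the binding site of heat shock factors, is built of GAA units in alternating orientation. A form of 3 units, GAANNTTC followed by NNGAA or TTCNNGAA followed by NNTTC, was found for Hspd1, Hspe1, Hsph1 and Dnajb6, which is 7.27% of the 55 genes against 0.662% of all genes with a window. The looser form of 2 units, GAANNTTC or TTCNNGAA, which each 3-unit match also contains, was found for 14 of the 55 genes (25.5%), against 17.0% of all genes. It was among the windows of Hspa1a, Hspa1b, Hspb1, Hspb6 and Hspb8. The matches are in capitals below. The stretch of Hspe1 also lies in a window of Hspd1, which is read on the opposite strand, and holds the same matches there.
Hspe1 (chr1:55088054-55088081, + strand): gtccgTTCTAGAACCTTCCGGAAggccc
Dnajb6 (chr5:29735837-29735879, + strand): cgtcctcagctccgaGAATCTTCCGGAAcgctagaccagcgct
Hspb1 (chr5:135887787-135887844, + strand): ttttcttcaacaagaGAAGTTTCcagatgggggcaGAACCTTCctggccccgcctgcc
Hspa1a (chr17:34972238-34972275, - strand): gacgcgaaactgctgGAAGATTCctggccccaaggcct
Hspa1b (chr17:34959320-34959357, - strand): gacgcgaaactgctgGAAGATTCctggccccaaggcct
The windows of Hspa1a and Hspa1b differed at 4 of 300 bases. These genes are near-identical copies, so that the assignment of array signal to one or the other is uncertain.

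Across the family, expression in mice with impaired memory lay close to that in mice with intact memory. The median log2 difference, impaired minus intact, was -0.023 over the 66 genes and -0.0013 over all 19505 genes. The impaired group had the higher mean for 30 of the 66 and the lower mean for 36. With limma and Benjamini-Hochberg adjustment over all genes, 0 of 66 passed an adjusted p of 0.05, and 0% of all genes did. At an unadjusted p under 0.05 there were 2 of 66 genes, Hspa1l and Dnajc25, both higher in the impaired group. That is 3.03%, against 4.94% of all genes, of which 2.74% were higher and 2.19% lower in the impaired group. The groups did not overlap for 2 of the 66 genes, Dnajc25 and Dnaja2, both higher in the impaired group. For all genes this share was 2.76%, with 1.47% higher and 1.29% lower in the impaired group. Both shares of the chaperones are near the background.

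The intervals limit how large a difference these arrays leave room for. The 95% interval of the log2 difference lay within -0.5 and 0.5 for 59 of the 66 genes (89.4%, against 77.3% of all genes), and within -1 and 1 for 65 of them. The 7 genes whose interval reached past -0.5 or 0.5 were Hspa1l, Hspa5 and the small heat shock proteins Hspb1, Hspb3, Hspb7, Hspb9 and Hspb11. All 26 DnaJ genes of class C and all 12 of class B were among the 59.

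**Figure D1:**
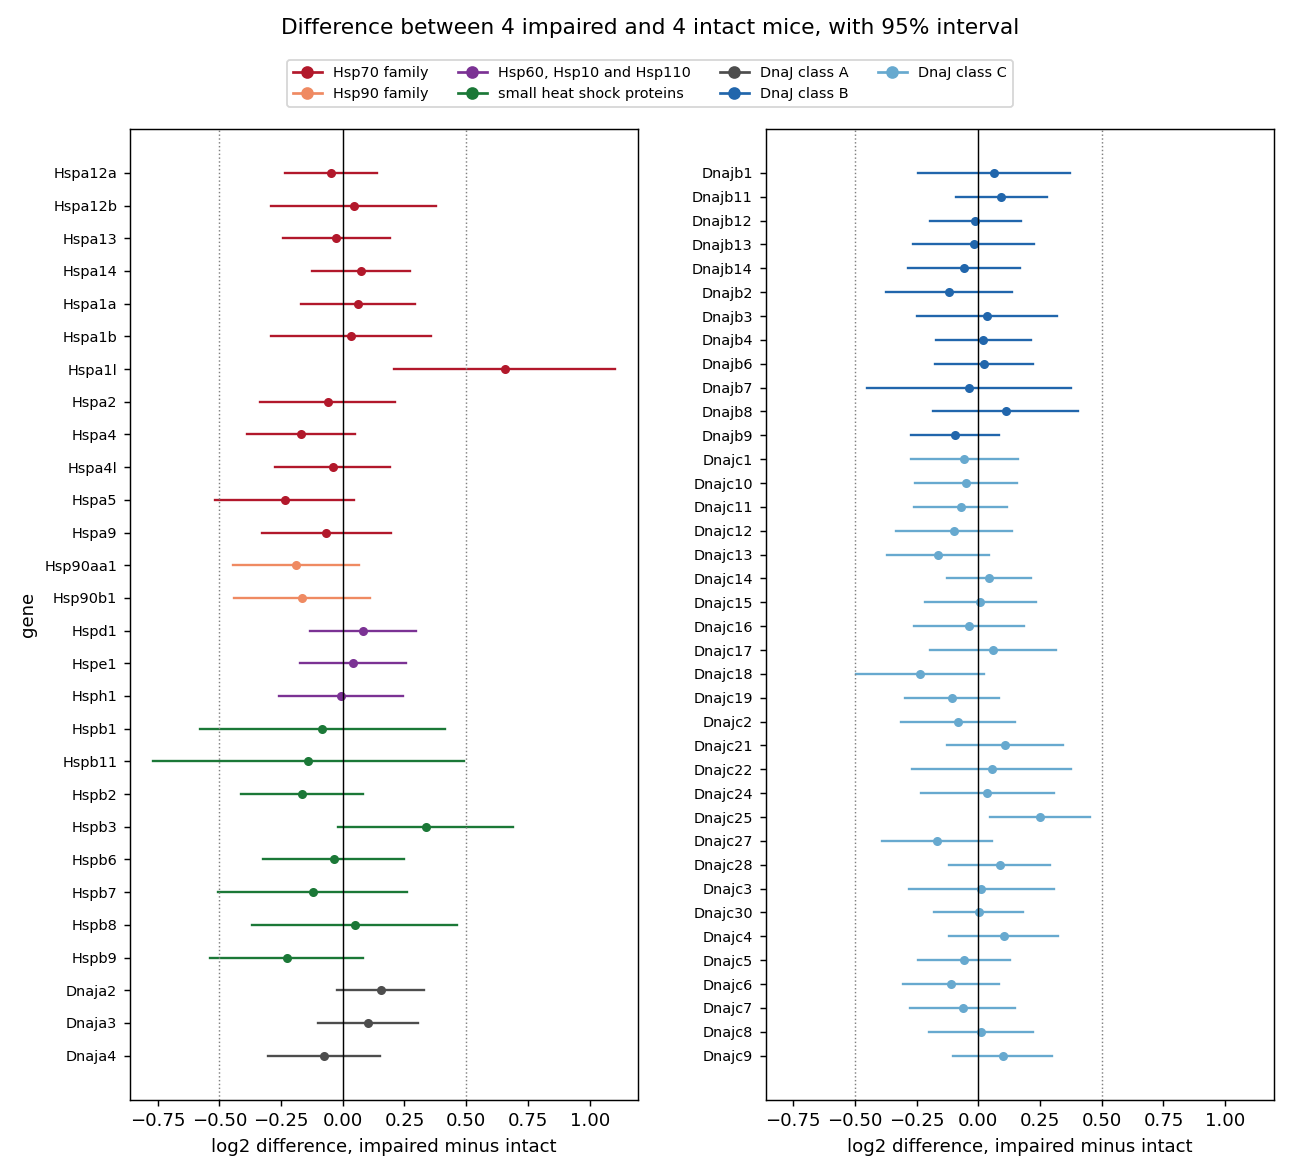
Log2 difference between the 4 impaired and the 4 intact mice (points, impaired minus intact) for each of the 66 chaperone genes, with the 95% interval from limma (lines), coloured by family; the dotted lines stand at -0.5 and 0.5. The intervals of Hspa1l and Dnajc25 leave out 0 before adjustment, and none of the 66 genes passed an adjusted p of 0.05.

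Among the cytosolic Hsp70 genes, the inducible pair Hspa1a and Hspa1b, whose products are made in large amounts on protein damage, had like levels in both groups. Hspa1a stood at 7.90, 7.87, 7.55 and 7.97 in impaired mice 1 to 4, against 7.78, 7.73, 7.73 and 7.82 in intact mice 1 to 4. Hspa1b stood at 7.83, 7.53, 7.07 and 7.56 in the impaired mice, against 7.54, 7.34, 7.51 and 7.45 in the intact mice. For both genes impaired mouse 3 had the lowest value of all 8 mice, the impaired values reached both above and below the intact ones, and the intact mice lay close together. The log2 difference of Hspa1a was 0.062 with a standard error of 0.10 and a 95% interval from -0.17 to 0.29 (limma, adjusted p = 0.978), and it was 0.15 without impaired mouse 3 and 0.014 without impaired mouse 4. That of Hspa1b was 0.034 with a standard error of 0.15 and an interval from -0.29 to 0.36 (limma, adjusted p = 0.994).

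Hspa1l, which encodes an Hsp70 made mainly in the testis and starts 547 bases from Hspa1a on the opposite strand, had the largest difference and the smallest p of the family. It stood at 5.53, 5.17, 5.24 and 4.60 in impaired mice 1 to 4, against 4.81, 4.11, 4.59 and 4.41 in intact mice 1 to 4. Impaired mouse 4 lay within the intact range, and the other impaired mice lay above it. The means were 5.14 ± 0.39 in the impaired group and 4.48 ± 0.29 in the intact group (SD, n = 4 each), which is 1.57-fold higher in the impaired group. The log2 difference, 0.66 with a standard error of 0.20, had an adjusted p of 0.963 (limma), which ran from 0.543 to 1.00 over the alternatives. Intron probe sets, taken here as background, had a median of 5.26 and a 75th percentile of 6.30. All mice but impaired mouse 1 lay below that median for Hspa1l. The gene was among the 25% of genes with the lowest mean, so that a filter on dim genes removes it.

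The other Hsp70 genes gave 0 calls. Hspa4, an Hsp110-like exchange factor for Hsp70, had 9.62, 9.89, 9.79 and 9.82 in the impaired mice, against 10.12, 9.97, 9.86 and 9.84 in the intact mice. Only impaired mouse 2 reached into the intact range, and the groups differed by -0.17 ± 0.098 on the log2 scale (standard error; limma, adjusted p = 0.963). Hspa2, Hspa4l, Hspa12a, Hspa12b, Hspa13 and Hspa14 had log2 differences from -0.061 for Hspa2 to 0.075 for Hspa14.

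**Figure D2:**
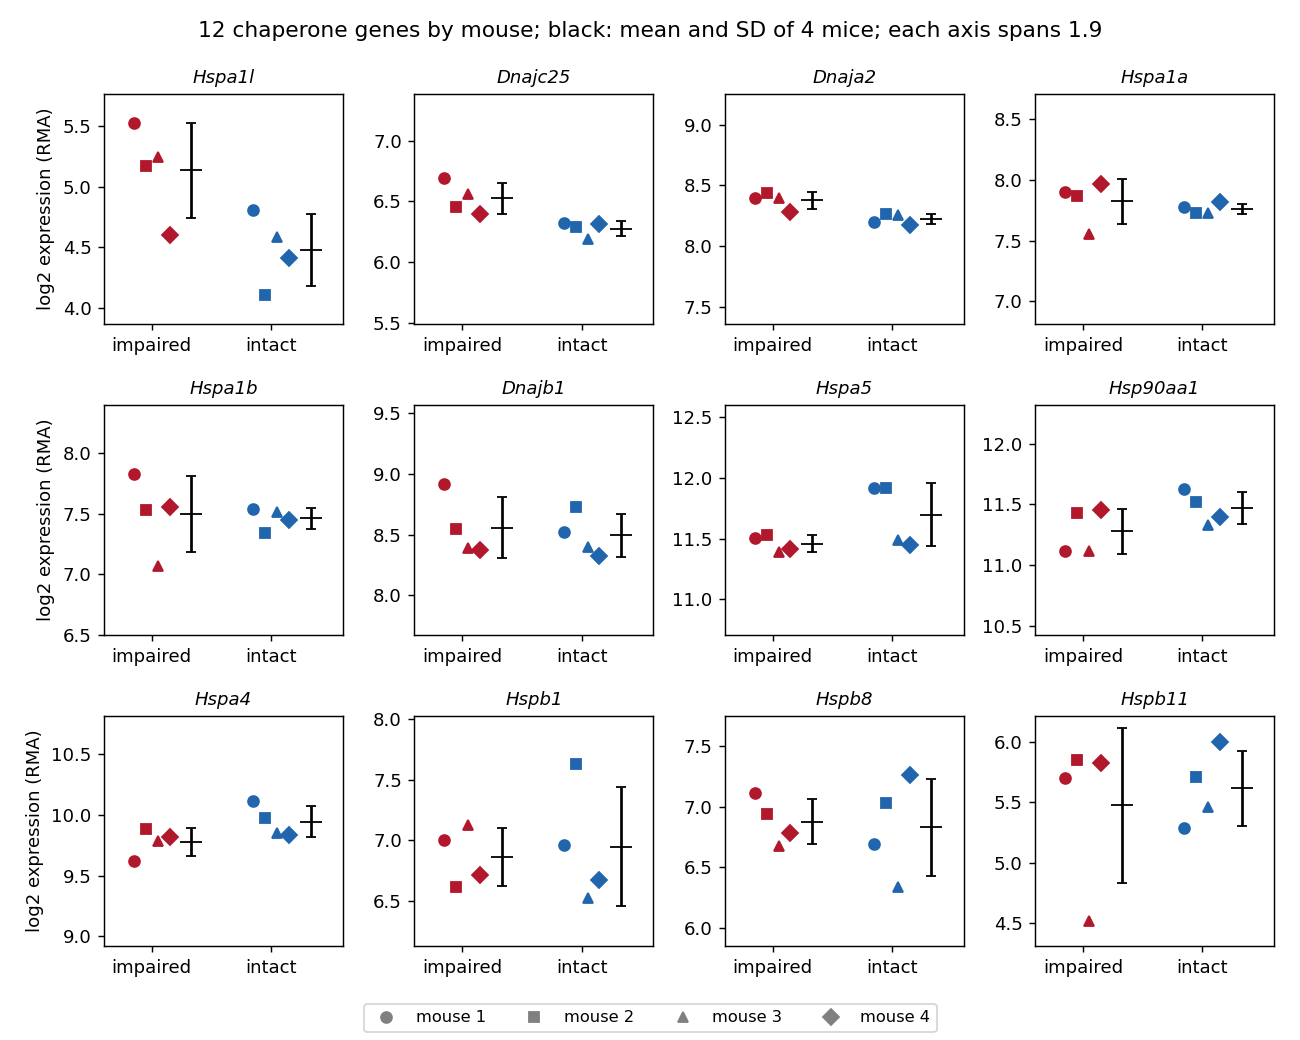
Log2 expression (RMA) of 12 chaperone genes in each mouse, with impaired mice in red at the left and intact mice in blue at the right of each panel, the shape giving the mouse number within its group and the black bar the mean and SD of 4 mice; every vertical axis spans the same 1.9 log2 units. Values of the groups overlap in all panels but those of Dnajc25 and Dnaja2, and Hspb11 has 1 low value, in impaired mouse 3.

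The chaperones of the ER lumen with the stress element had their highest values in intact mouse 2. For Hspa5, intact mouse 1 was level with it. Being highest in intact mouse 2 was not particular to them, as it held for 19 of the 66 genes (28.8%, against 14.7% of all genes). Hspa5, the ER Hsp70 also called BiP, stood at 11.50, 11.53, 11.39 and 11.41 in impaired mice 1 to 4, against 11.92, 11.92, 11.49 and 11.45 in intact mice 1 to 4. Intact mice 1 and 2 lay above all other mice, while intact mice 3 and 4 lay within the impaired range. This gave a log2 difference of -0.24 (standard error 0.13), with a 95% interval from -0.52 to 0.046 (limma, adjusted p = 0.963). Hsp90b1, the ER Hsp90 also called Grp94, stood at 10.62, 10.69, 10.48 and 10.76 in the impaired mice, against 10.90, 11.06, 10.51 and 10.75 in the intact mice. Its 2 highest values were again those of intact mice 1 and 2, and the groups differed by -0.16 ± 0.12 (standard error; limma, adjusted p = 0.964). It moved with single intact mice, being -0.079 without intact mouse 2 and -0.26 without intact mouse 3. Dnajc3, which restrains the kinase PERK and serves Hspa5 as a co-chaperone, stood at 8.15, 8.55, 8.46 and 8.40 in the impaired mice, against 8.49, 8.62, 8.10 and 8.30 in the intact mice. It was highest in intact mouse 2 and lowest in intact mouse 3, and its log2 difference was 0.012 with an interval from -0.28 to 0.31 (limma, adjusted p = 0.998).

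Markers of the choroid plexus, a secretory epithelium that borders the hippocampus, were highest in intact mice 1 and 2 as well. The mean deviation of 9 such markers from their own means was 0.13, -0.35, -1.08 and 0.28 in impaired mice 1 to 4, against 1.03, 0.65, -1.06 and 0.39 in intact mice 1 to 4. All 9 had a lower mean in the impaired group, and 3 of the 9 had a mean above 7.92, the 95th percentile of the introns. The main one, Ttr, averaged 12.08 in the impaired group and 12.74 in the intact group. With this score and a like score of thalamus markers as covariates, the groups differed in log2 expression by -0.16 with a standard error of 0.14 for Hspa5 and -0.10 with a standard error of 0.11 for Hsp90b1 (limma, adjusted p = 1.00 for each). That fit holds both scores together and does not single out the plexus, so whether plexus tissue set part of these values was not tested. In bulk tissue, fewer cells of a type and less RNA per cell cannot be told apart.

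Of the 11 genes of the ER list, Hspa5, Hsp90b1 and Dnajc3 included, 3 were higher and 8 lower in the impaired group, with a median log2 difference of -0.049. Dnajb9, an ER co-chaperone that dampens the sensor IRE1, had a log2 difference of -0.095 with a standard error of 0.081, and Dnajb11, a cofactor of Hspa5, one of 0.094 with a standard error of 0.083. Dnajc25, a membrane-bound J protein, was the member with the second smallest p. It stood at 6.69, 6.46, 6.56 and 6.40 in impaired mice 1 to 4, against 6.32, 6.29, 6.19 and 6.31 in intact mice 1 to 4. All 4 impaired values lay above all 4 intact values, with impaired mouse 4 and intact mouse 1 nearest to each other. Its mean over the 8 mice, 6.40, was only just above the introns' 75th percentile of 6.30, and intact mice 2 and 3 lay below that level. The difference of 0.25 (standard error 0.091) had an interval from 0.049 to 0.45 and an adjusted p of 0.963 (limma).

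**Figure D3:**
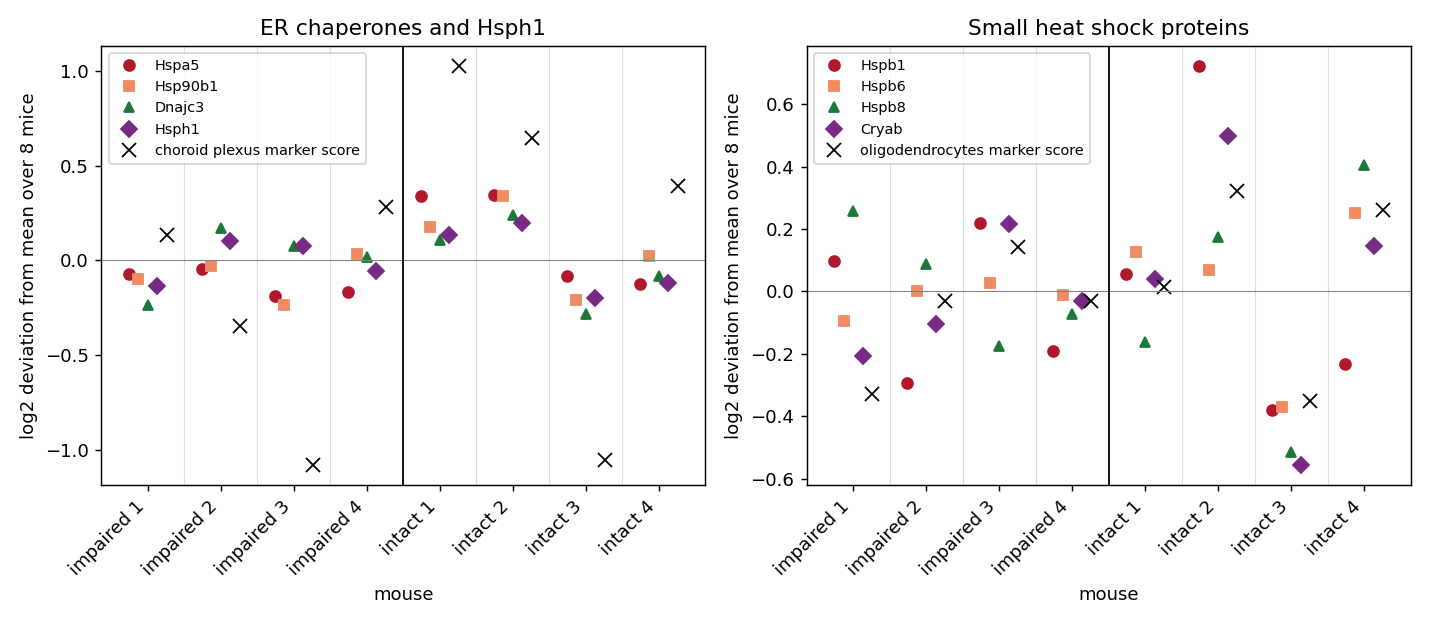
Deviation of each gene from its mean over the 8 mice (log2 units, coloured symbols) for ER chaperones with Hsph1 at the left and for small heat shock proteins with Cryab at the right, with the mean deviation of marker genes of the choroid plexus or of oligodendrocytes as crosses; the vertical line separates impaired from intact mice. Hspa5 and Hsp90b1 are highest in intact mice 1 and 2, and Hspb1, Hspb6, Hspb8 and Cryab are lowest in intact mouse 3.

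In the cytosol, neither Hsp90aa1 nor Hsph1 passed the test. Hsp90aa1, the stress-inducible cytosolic Hsp90, stood at 11.11, 11.43, 11.11 and 11.45 in the impaired mice, against 11.63, 11.51, 11.33 and 11.39 in the intact mice. Impaired mice 1 and 3 lay below all intact mice, and impaired mice 2 and 4 lay inside the intact range. Between the groups the difference was -0.19 ± 0.11 (standard error; limma, adjusted p = 0.963). Hsph1, the Hsp110 that works with Hsp70 and DnaJ proteins to break up aggregates, averaged 10.67 ± 0.11 in the impaired group and 10.68 ± 0.19 in the intact group (SD, n = 4 each). Its 95% interval ran from -0.26 to 0.24.

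The mitochondrial chaperones had nearby means in both groups. Hspd1, the Hsp60 chaperonin, averaged 9.95 ± 0.12 in the impaired group and 9.87 ± 0.12 in the intact group, and its lid Hspe1 averaged 9.47 ± 0.16 in the impaired group and 9.42 ± 0.046 in the intact group (SD, n = 4 each). The 95% intervals ran from -0.13 to 0.30 for Hspd1 and from -0.17 to 0.26 for Hspe1. Hspd1 was highest in impaired mouse 2 and Hspe1 in impaired mouse 4. Hspa9, the mitochondrial Hsp70, had a log2 difference of -0.066, with the lowest value, 8.01, in impaired mouse 1 and 8.31 to 8.53 in the other 7 mice. All 8 genes of the mitochondrial list had intervals within -0.5 and 0.5, and their median difference was 0.0050. Of these 8, 5 were higher in the impaired group.

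The small heat shock proteins varied most between mice. Their median SD over the 8 arrays was 0.28, against 0.14 for the whole family and 0.17 for all genes. Hspb11, counted among the 8 genes by its symbol alone, had the largest SD of them, 0.47. Of the 8, 4 were dim, with means under the introns' 75th percentile. Of the 8 genes, 2 were higher and 6 lower in the impaired group, with a median difference of -0.10, which was -0.037 without intact mouse 2 and -0.18 without intact mouse 3. Hspb1, known in human as Hsp27 and made in the brain by glia and vessels, stood at 7.004, 6.61, 7.13 and 6.71 in impaired mice 1 to 4, against 6.96, 7.63, 6.52 and 6.67 in intact mice 1 to 4. Intact mouse 2 was highest and intact mouse 3 lowest of all 8. Its difference of -0.084 (standard error 0.22) had an interval from -0.58 to 0.41 (limma, adjusted p = 0.989).

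Hspb8, which works with the co-chaperone Bag3 in the removal of aggregates by autophagy, stood at 7.11, 6.94, 6.68 and 6.78 in the impaired mice, against 6.69, 7.03, 6.34 and 7.26 in the intact mice. The intact mice spanned more than the impaired mice on both sides, and the group means differed by 0.049 (standard error 0.19). Hspb6, also called Hsp20, was lowest in intact mouse 3, at 8.11, while the other 7 mice had 8.39 to 8.73. Cryab, the small heat shock protein most abundant in oligodendrocytes, which the symbol rule leaves out, stood at 10.33, 10.43, 10.75 and 10.50 in the impaired mice, against 10.57, 11.03, 9.98 and 10.68 in the intact mice. It too was highest in intact mouse 2 and lowest in intact mouse 3. With Cryaa and Odf1, the other small heat shock proteins outside the rule, the median difference of the 3 genes was -0.0077. That median is the difference of Odf1, which was very dim, with a mean of 3.38. Cryaa too had a mean under the introns' 75th percentile, at 5.51. The mean deviation of 7 oligodendrocyte markers, each brighter on average than 95% of intron probe sets, was -0.33, -0.031, 0.14 and -0.029 in the impaired mice, against 0.015, 0.32, -0.35 and 0.26 in the intact mice. The part of oligodendrocyte content in these values was not tested.

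Hspb3, Hspb7, Hspb9 and Hspb11 were the dim members of this group. Hspb3, a form known from muscle, stood at 4.97, 5.28, 4.79 and 4.71 in the impaired mice, against 4.29, 4.59, 4.94 and 4.58 in the intact mice, with a log2 difference of 0.34 ± 0.16 (standard error; limma, adjusted p = 0.963). Intact mouse 3 lay inside the impaired range and the other intact mice below it. Hspb9, a testis form, had a log2 difference of -0.23 with a standard error of 0.14, and Hspb2, a muscle form, one of -0.16 with a standard error of 0.11. Hspb11, a subunit of the transport complex of cilia despite its name, stood at 5.70, 5.85, 4.52 and 5.83 in the impaired mice, against 5.29, 5.71, 5.46 and 5.998 in the intact mice. Impaired mouse 3 lay well below every other mouse, and the rest of the impaired values lay within the intact range.

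Of the DnaJ proteins of classes A and B, which deliver substrates to Hsp70, the data gave no call either. Dnaja2, a cytosolic partner of Hsp70 in refolding, stood at 8.40, 8.44, 8.39 and 8.28 in impaired mice 1 to 4, against 8.20, 8.26, 8.25 and 8.18 in intact mice 1 to 4. All impaired values lay above all intact values, with impaired mouse 4 and intact mouse 2 nearly touching. The difference was 0.15 (standard error 0.079), with an interval from -0.022 to 0.33 (limma, adjusted p = 0.963). Dnajb1, the heat-inducible Hsp40, stood at 8.91, 8.55, 8.39 and 8.37 in the impaired mice, against 8.52, 8.73, 8.40 and 8.33 in the intact mice. Its highest value was that of impaired mouse 1, and the groups differed by 0.062 (standard error 0.14). That mouse was also highest for Hspa1b, while Hspa1a was highest in impaired mouse 4. Of the 11 measured heat-inducible chaperones, impaired mouse 1 was highest for 2 and intact mouse 2 for 4.

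In impaired mouse 1 the immediate early genes, which neurons induce with activity, stood highest. Their mean deviation there was 0.39 over 24 genes, against -0.14 to 0.023 in the other 7 mice. The part of that signal in Dnajb1 was not tested. Dnajb6 and Dnajb2, which restrain the aggregation of polyglutamine and other proteins, had log2 differences of 0.022 with a standard error of 0.089 and -0.12 with a standard error of 0.11. Over the 12 class B genes, 6 were higher and 6 lower in the impaired group, with a median of 0.0037. Dnajb3, Dnajb7, Dnajb8 and Dnajb13 were below the introns' 75th percentile on average.

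The class C genes hold the J proteins with special tasks at the synapse and in endocytosis. Dnajc5, the cysteine string protein that guards SNARE assembly on synaptic vesicles, averaged 9.46 ± 0.068 in the impaired group and 9.51 ± 0.086 in the intact group (SD, n = 4 each), with an interval from -0.24 to 0.13. Dnajc6, or auxilin, which strips clathrin from vesicles together with Hsc70, stood at 10.54, 10.78, 10.68 and 10.76 in the impaired mice, against 10.83, 10.85, 10.80 and 10.70 in the intact mice. Intact mouse 4 alone lay within the impaired range. Its log2 difference was -0.11 ± 0.088 (standard error; limma, adjusted p = 0.964). Dnajc13, an endosomal J protein also called RME-8, stood at 7.74, 7.75, 7.61 and 7.75 in the impaired mice, against 7.97, 7.91, 7.94 and 7.68 in the intact mice, with a log2 difference of -0.16 ± 0.093 (standard error; limma, adjusted p = 0.963). Intact mouse 4 lay within the impaired range and the other intact mice above it.

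The synaptic and endocytic list had 6 measured genes, Dnajb2, Dnajc5, Dnajc6, Dnajc13, Hspa4 and Hsph1. All 6 had a lower mean in the impaired group, as did 9821 of all 19505 genes. The median difference of the 6 was -0.11, that of Hsph1 was -0.0065, and 0 had an unadjusted p under 0.05. Their mean deviation was -0.15, 0.012, -0.041 and -0.025 in impaired mice 1 to 4. It was 0.14, 0.12, -0.041 and -0.0048 in intact mice 1 to 4. The list was written with earlier results of these data known. Dnajc18, a membrane-bound J protein of the ER that the ER list of 11 genes leaves out, stood at 8.14, 8.44, 8.09 and 8.53 in the impaired mice, against 8.64, 8.56, 8.44 and 8.50 in the intact mice. Impaired mouse 4 lay inside the intact range, and the other impaired mice lay below it, mouse 2 only just. The difference was -0.24 ± 0.12 (standard error; limma, adjusted p = 0.963). Dnajc27, a J protein with a Rab-like GTPase domain, had a log2 difference of -0.17 with a standard error of 0.10. Of the 26 class C genes, 13 were higher and 13 lower, with a median of -0.018.

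Many of the extreme values were those of single mice. Intact mouse 2 had the highest value of the 8 mice for 19 of the 66 genes (28.8%, against 14.7% of all genes), and intact mouse 3 had the lowest value for 16 of them (24.2%, against 13.3% of all genes). Impaired mouse 3 had the lowest value for 13 (19.7%, against 17.0% of all genes). Dnajb2, Dnajb4, Dnajc3, Dnajc12, Dnajc15, Hspa4l, Hspa12b, Hspb1 and Hsph1 were both highest in intact mouse 2 and lowest in intact mouse 3, so that the intact group spanned their whole range. Intact mouse 3 also stood lowest for thalamus markers, with a mean deviation of -1.42 over 10 genes against -0.27 to 0.50 in the other mice. It was lowest as well for oligodendrocyte markers, at -0.35, and for microglia markers, at -0.18. Markers of hippocampal neurons, of endothelium and of smooth muscle with pericytes lay above their means in this mouse, at 0.17, 0.0087 and 0.070. The part of neighbouring tissue or of cell content in the tally of extreme values was not tested.

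**Figure D4:**
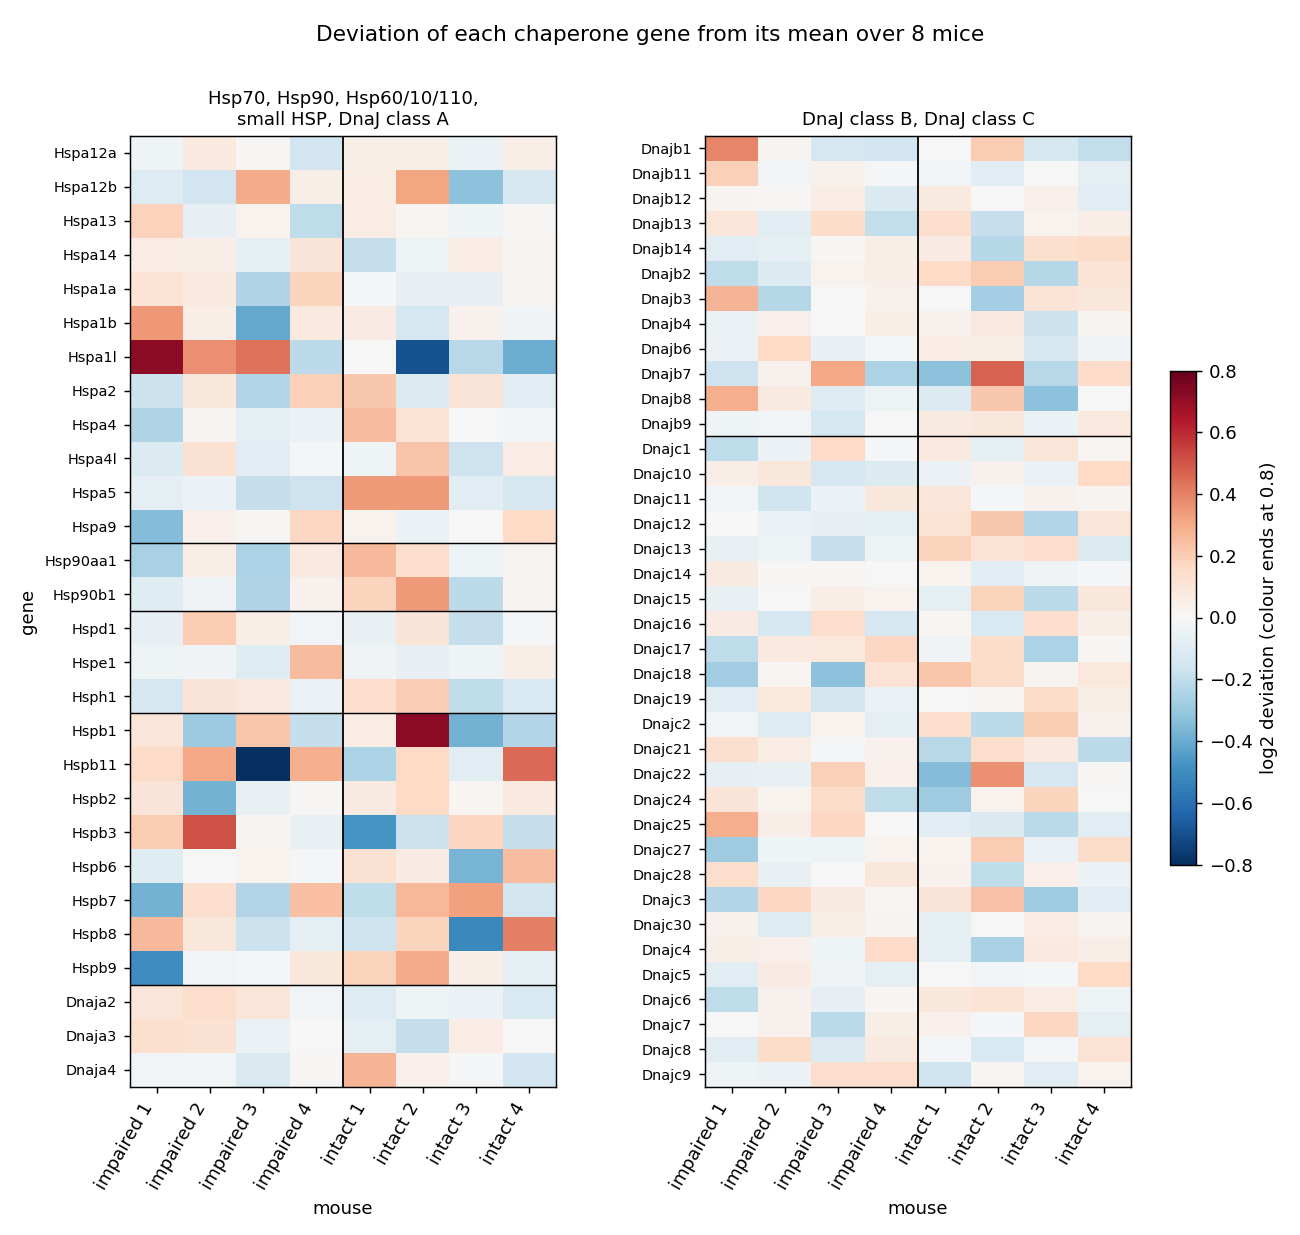
Deviation of each of the 66 chaperone genes (rows, grouped by family) from its own mean over the 8 mice (columns, impaired left of intact), in log2 units, red above and blue below that mean. The strongest colours belong to Hspa1l and to small heat shock proteins, and the columns of intact mouse 2 and intact mouse 3 hold 19 of the highest and 16 of the lowest values.

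The regulators and partners outside the family showed small differences too. Of 5 measured heat shock factors and inhibitors, 1 was higher and 4 lower in the impaired group. The median was -0.13, with 0 genes at an unadjusted p under 0.05. Hsf5, whose difference is that median, and Hsbp1l1, also lower, were dim, with means under the introns' 75th percentile. Hsf1 was not analysed here. Hsf2, a heat shock factor, stood at 7.52, 7.56, 6.93 and 7.58 in the impaired mice, against 7.65, 7.51, 7.81 and 7.82 in the intact mice, with a log2 difference of -0.30 ± 0.15 (standard error; limma, adjusted p = 0.963). Its low value was again that of impaired mouse 3. Of 13 heat-inducible genes outside the family, 8 were higher and 5 lower, with a median of 0.033 and differences from -0.12 for Cacybp to 0.088 for Jmjd6. Bag3, the partner of Hspb8, had a difference of 0.048 (standard error 0.12).

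Of 27 measured co-chaperones of Hsp70 and Hsp90, 13 were higher and 14 lower in the impaired group, with a median of -0.00091. The Hsp70 exchange factor Bag1 had a difference of -0.24 (standard error 0.11), and the Hsp90 partner Cdc37l1 one of -0.20 (standard error 0.11). Fkbp5, a glucocorticoid-induced co-chaperone of Hsp90, differed by 0.072 with an interval from -0.28 to 0.42. It belongs to a list of 14 glucocorticoid-responsive genes, of which 13 had a higher mean in the impaired group. The median of the list was 0.21, with a range of 0.079 to 0.24 without single mice. Impaired mouse 2 had the highest value for 11 of the 14 genes, Fkbp5 and Sgk1 included. The mean deviation of the list was -0.11, 0.41, 0.10 and 0.043 in impaired mice 1 to 4. It was -0.15, -0.25, -0.075 and 0.031 in intact mice 1 to 4. In that list 2 genes, the kinase Sgk1 at 0.45 (standard error 0.18) and the clock gene Per1 at 0.26 (standard error 0.10), had an unadjusted p under 0.05, and 0 passed after adjustment. Of 22 unfolded protein response genes outside the family, 9 were higher and 13 lower, with a median of -0.036. Pdia3, an ER disulfide isomerase, had a difference of -0.20 (standard error 0.11), and like Hspa5 it was highest in intact mice 1 and 2, at 10.17 and 10.19, against 9.67 to 9.98 in the other mice. Of 13 genes of the CCT chaperonin and prefoldin, 5 were higher and 8 lower, with a median of -0.026. Of 13 genes of mitochondrial protein quality control, 6 were higher and 7 lower, with a median of -0.021. Of 10 exchange factors and J proteins outside the symbol rule, 3 were higher and 7 lower, with a median of -0.024. No co-chaperone, unfolded protein response, CCT, prefoldin, mitochondrial quality control or exchange factor gene of these lists had an unadjusted p under 0.05.

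The arrays were alike in their overall level, with a median over all genes between 7.02 and 7.05 and correlations between pairs of arrays from 0.986 to 0.992. The neuronal markers Prox1, Wfs1, Cck, Neurod6 and Nrgn all had means above the 95th percentile of the introns. Of the 66 chaperones, 41 had a mean above that level and 10 a mean below the 75th percentile. Precision is limited by the number of arrays, and a difference had a standard error of 0.10 for the median chaperone and 0.12 for the median gene. All 5 neuronal markers had a higher mean in the impaired group (median log2 difference 0.072), as did all 10 thalamus markers (0.32). All 7 oligodendrocyte markers had a lower mean there (-0.12). Of 10 endothelium, 7 microglia and 8 smooth muscle and pericyte markers, 1, 5 and 4 were higher. These lists held 0 genes at an unadjusted p under 0.05 (limma), and a difference in tissue content was not tested.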

How the data were processed

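RNA from the hippocampus of 8 mice was measured on 1-colour Affymetrix arrays, 1 per mouse, from 1 ng of total RNA per the labels' protocols. The authors deposited log2 values, made with RMA per the submitters' processing notes. The RMA software version is not given in the sources used here, nor is the array's build. RMA draws dim genes towards the background. The platform's probe table gave a symbol to 19572 of 22206 target probe sets and left 2634 unnamed here. Where a gene had more than 1 probe set (55 genes, 0 of the chaperones) the brightest was used. Groups came from the sample titles. Impaired minus intact was tested with limma 3.58.1 in R 4.3.3 over all 19505 genes, two-sided, with no expression filter and Benjamini-Hochberg adjustment. The fit was checked on simulated data, where it had to find large planted differences. Its power for differences as small as those seen here is not given. The 66 genes and all lists were chosen with earlier results of these data known. Named with values are the 12 chaperones with the smallest p, those whose groups do not overlap, the 5 with the largest SD over the arrays, a fixed set of well-known members, and up to 3 genes of other lists; Hspa2, Hspa14, Hspb6, Dnajb11 and Ttr were added after their values were seen. Scan dates were not used here, so that batches could not be tested. The labels number the replicates as biological, and p-values measure the spread between these mice. The alternatives were a filter on dim genes, 2 other normalizations, a trended robust prior, array weights, the mean of probe sets, a replicate block, marker scores as covariates and leaving out mice.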

Additional observations from a re-analysis of the deposited data

Results flagged for a closer look

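Values of the 29 named chaperones were screened in both groups of 4 mice, 58 groups in all, for a mouse far from the others of its group by Dixon's ratio of gap to range, whose 95% critical value for 4 values is 0.829. Chance flags about 1 in 20 groups chosen without regard to spread, and 4 values stood out. That rate does not apply to Hspb11, named for its large SD, or to Dnajc13, named for its small p, which also depends on spread. Hspb11 was 4.52 in impaired mouse 3, against 5.70 to 5.85 in the other impaired mice. Dnajc13 was 7.61 in the same mouse, against 7.74 to 7.75 in the other impaired mice. Dnajb9 was 8.83 in intact mouse 3, against 8.95 to 8.97 in the other intact mice. Dnajc5 was 9.64 in intact mouse 4, against 9.46 to 9.48 in the other intact mice.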

How the results depend on the processing

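No chaperone passed an adjusted p of 0.05 under any of 17 alternatives, and their smallest adjusted p was 0.543, for Hspa1l without impaired mouse 4. The count at an unadjusted p under 0.05, 2 as reported, was 4 with a trend and robust prior (Hspa1l higher, Hspa5, Hsp90aa1 and Dnajc18 lower), 1 with dim genes left out, 1 with plexus and thalamus scores as covariates, and 1 to 4 without single mice. It was 4 without impaired mouse 4, without intact mouse 3 and without intact mouse 4, the last 2 with Hspa5 lower, at -0.30 and -0.32, joined by Hsp90b1 at -0.26 without intact mouse 3 and by Dnajc13 at -0.23 without intact mouse 4; it was 1 without impaired mouse 1. The genes without overlap, 2 as reported, were 1 after a median shift, 3 to 9 without single mice and 12 without impaired mouse 3 and intact mouse 3, a setting chosen after seeing the data; smaller groups overlap less often. The median over the chaperones stayed between -0.041 and -0.0021. Class C had a median of -0.037 with dim genes left out, -0.056 with both scores, -0.041 without those 2 mice and -0.045 to -0.0039 without single mice. Mitochondrial quality control had 0.014, 0.029 and -0.058 to 0.016 under the last 3 of these settings, exchange factors and J proteins outside the rule 0.018 without the 2 mice and -0.031 to 0.018 without single mice, and the 3 small heat shock proteins outside the rule -0.32 without the 2 mice. The median of heat-inducible genes outside the family ran from -0.0050 to 0.058 without single mice, was -0.025 without the 2 mice and -0.022 with both scores, so that its sign is not settled. Medians of the Hsp70, class B, heat-inducible and mitochondrial chaperones, of co-chaperones and of the unfolded protein response also took both signs over the alternatives. Without single mice the ER median ran from -0.045 to -0.021 and the synaptic one from -0.14 to -0.066. Single mice moved Hspd1 between 0.028 and 0.13 and Dnajc5 between -0.089 and -0.015. Signs turned for genes with small differences. With both scores Dnajc3 was -0.045 and Hspb11 0.058, without the 2 mice Dnajc3 was -0.10, Hspb11 0.13 and Hspb8 -0.048, and with quantile normalization Hsph1 was 0.039. Without single mice the log2 difference ran from -0.056 to 0.14 for Dnajb1, from -0.028 to 0.045 for Dnajb6, from -0.081 to 0.093 for Dnajc3, from -0.077 to 0.18 for Hspa1b, from -0.13 to 0.039 for Hspa9, from -0.22 to 0.14 for Hspb1, from -0.26 to 0.18 for Hspb11, from -0.11 to 0.19 for Hspb8, from -0.034 to 0.081 for Hspe1 and from -0.074 to 0.059 for Hsph1. The causes were not tested. With the replicate block the count at an unadjusted p under 0.05 was 2 and the difference of Hspa1l 0.66; mice of equal number did not deviate together (correlations -0.093 to 0.022), so that they share only a number. Dnajc25 was no longer under an unadjusted p of 0.05 (limma) with the trend and robust prior or with both scores. The same held without impaired mouse 1, without intact mouse 3, and without impaired mouse 3 and intact mouse 3 together. Signal near the background limits Hspa1l, Hspb3 and other dim genes.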
